A study of Mus musculus with 2 samples.

Results

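Glycosaminoglycan synthesis and sulfation was examined here through 38 genes, chosen by name, whose products build chondroitin, dermatan and heparan sulfate, supply them with sulfate and nucleotide sugars, or trim the finished chains. Of these, 36 had a probe set annotated to that gene alone, among 18193 genes so named on the array, and *Xylt1* and *Ndst1* were not analysed here. The measurements came from 2 Affymetrix mouse genome arrays, both of *Tric-b*-KO femoral cartilage from E17.5 embryos of a C57BL/6J and 129Sv background. *Tric-b* (*Tmem38b*) encodes an ER cation channel. Growth plates had been cut into a portion rich in round chondrocytes and a portion with columnar and hypertrophic chondrocytes, and each portion gave the RNA of one array. By the submitters' account, 3 preparations were mixed for each RNA, so each zone had 1 array and no difference had a replicate check. Both arrays carried the knockout, wild-type arrays were not analysed here, and every comparison was therefore between zones and not between genotypes.

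Glycosaminoglycans are long sugar chains that hang from proteoglycan core proteins such as aggrecan, and their negative sulfate groups hold the water that gives cartilage its stiffness. A short linker sugar is first built on a serine of the core protein. Chains then diverge into chondroitin sulfate, which in part becomes dermatan sulfate, or into heparan sulfate, which binds growth factors such as FGFs and hedgehog proteins at the cell surface. All sulfation uses the donor PAPS, made inside the cell from imported sulfate, and inherited defects of *SLC26A2*, *PAPSS2* and *SLC35D1* cause skeletal dysplasias in which cartilage is undersulfated or poor in chondroitin sulfate.

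The listed genes at least 2-fold apart fell on opposite sides by branch. *Chsy3*, *Chst12* and *Chst15* of the chondroitin branch were higher by 2-fold or more in the columnar/hypertrophic array. *Hs6st2*, *Sulf1* and *Sulf2*, which set the 6-O-sulfation of heparan sulfate, were higher by 2-fold or more in the round array. On each side these were 9.09% of the compared listed genes, against 4.28% (columnar/hypertrophic) and 6.25% (round) of all compared genes. *Chsy3* fell under 2-fold when averaged over probe sets (0.78). *Sulf2* did so (-0.33) when probe sets marked by the manufacturer as matching several transcripts were left out. By any amount, 9 of the 12 compared chondroitin and dermatan genes lay on the columnar/hypertrophic side as deposited, and *Csgalnact2*, *Ust* and *Chst14* on the round side. Of the 12 compared heparan genes, 9 lay on the round side, and *Ext2*, *Extl1* and *Glce* on the other. Among these, *Chsy1*, *Chpf2*, *Ext1* and *Extl3* had either sign, depending on the scaling or the choice of probe set. After quantile normalization 3 of the 6 chondroitin chain genes lay on the columnar/hypertrophic side, and after centring on the median 4 of the 5 heparan chain genes did. Beside these and later counts of sides stands the share over all compared genes, 46.8% on the columnar/hypertrophic side by any amount. Signals are given as deposited, on a linear scale, first for the round and then for the columnar/hypertrophic array, and differences are on the log2 scale, with positive values where the columnar/hypertrophic array had more. Each gene was represented by its brightest probe set. Signals at or under 65.9, the 40th percentile of all signals, were treated as equal to this floor. Because the RNA was that of whole tissue pieces, fewer cells of a type and less RNA per cell cannot be told apart.

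Of the 36 measured genes, 33 were above the floor in at least 1 array and could be compared. Of these, 3 (9.09%) passed 2-fold on the columnar/hypertrophic side, against 4.28% of all 12761 compared genes. On the round side 3 (9.09%) passed it too, against 6.25% of all compared genes. Of the 33, 18 (54.5%) were on the columnar/hypertrophic side by any amount, against 46.8% of all compared genes. The median difference was 0.10 over the 33 genes and -0.04 over all compared genes. As a yardstick, log2 differences of probe sets for the same gene had a pooled SD of 0.34 (5446 genes), which leaves out variation between animals and preparations. Of the 33 genes, 15 differed by less than this SD, as did 52.5% of all compared genes.

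**Figure D1:**
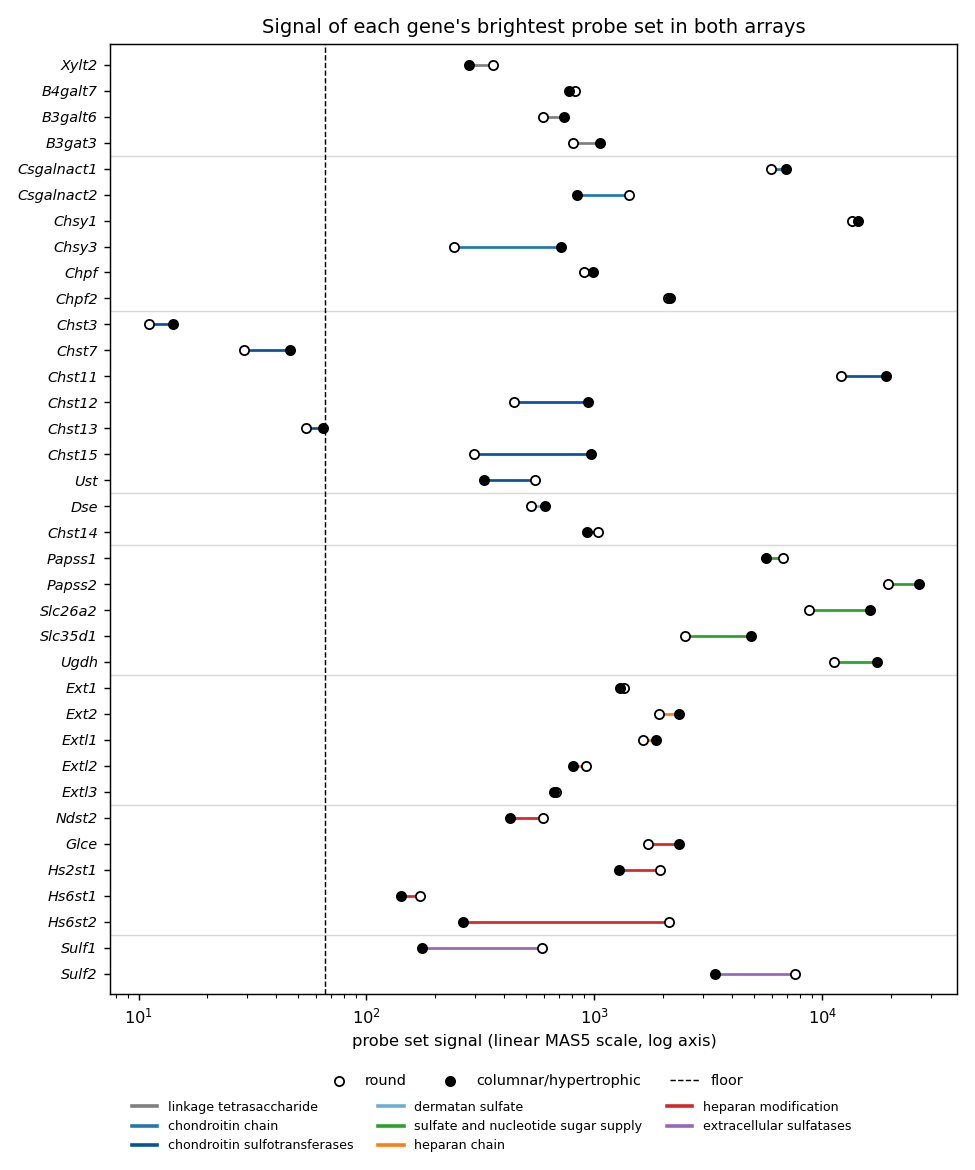
Signals on a log axis for the brightest probe set of the 36 measured genes, with open circles for round and filled circles for columnar/hypertrophic RNA, 1 array per zone, grouped by step. The longest connecting line is that of *Hs6st2*, from 2123 to 266, and *Chst3*, *Chst7* and *Chst13* lie left of the floor of 65.9 (dashed line). Signals do not rank the genes, since probe sets differ in how brightly they report a transcript.

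Promoter sequences are shown for the genes at least 2-fold apart. They were held for *Chst12*, *Chst15*, *Hs6st2* and *Sulf2*, and none is shown for *Chsy3* and *Sulf1*. Each run is from RefSeq (GRCm38.p6), 250 bases before to 50 after the first listed transcription start, on the gene's strand and 5′ to 3′. Capitals mark matches to a GC box (GGGCGG) or a TATA motif (TATAAA) on either strand. The windows are chr5:140505359-140505658 (plus strand) for *Chst12*, chr7:132317179-132317478 (minus strand) for *Chst15*, chrX:51681553-51681852 (minus strand) for *Hs6st2* and chr2:166155634-166155933 (minus strand) for *Sulf2*.
Chst12: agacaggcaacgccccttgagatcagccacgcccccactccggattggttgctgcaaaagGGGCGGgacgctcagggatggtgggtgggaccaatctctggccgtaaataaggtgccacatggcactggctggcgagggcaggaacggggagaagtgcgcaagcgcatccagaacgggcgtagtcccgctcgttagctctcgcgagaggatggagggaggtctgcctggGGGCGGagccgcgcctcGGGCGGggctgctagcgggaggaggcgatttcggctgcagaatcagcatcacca
Chst15: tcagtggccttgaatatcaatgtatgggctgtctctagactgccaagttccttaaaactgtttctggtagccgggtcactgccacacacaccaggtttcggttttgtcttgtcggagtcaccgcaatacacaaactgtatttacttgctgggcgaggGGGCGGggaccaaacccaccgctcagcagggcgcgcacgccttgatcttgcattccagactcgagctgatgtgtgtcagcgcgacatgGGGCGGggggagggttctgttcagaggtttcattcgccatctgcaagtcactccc
Hs6st2: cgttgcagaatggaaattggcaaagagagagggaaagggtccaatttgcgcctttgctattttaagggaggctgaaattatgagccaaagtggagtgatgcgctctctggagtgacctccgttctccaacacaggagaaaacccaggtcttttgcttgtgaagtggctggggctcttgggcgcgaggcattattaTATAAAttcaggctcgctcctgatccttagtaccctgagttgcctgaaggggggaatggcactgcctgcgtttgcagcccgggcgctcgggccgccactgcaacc
Sulf2: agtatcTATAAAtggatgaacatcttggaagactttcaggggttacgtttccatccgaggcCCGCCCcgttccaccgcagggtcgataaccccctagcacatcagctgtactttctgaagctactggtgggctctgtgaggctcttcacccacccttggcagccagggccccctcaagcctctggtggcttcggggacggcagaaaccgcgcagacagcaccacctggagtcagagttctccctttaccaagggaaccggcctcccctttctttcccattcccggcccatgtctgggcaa

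The *Chst12* window held 3 GC boxes, starting 190, 21 and 4 bases before the start site, and that of *Chst15* held 2, starting 93 and 5 bases before it. The *Hs6st2* window held no GC box and 1 TATA match, starting 55 bases before the start. The *Sulf2* window held 1 GC box, on the opposite strand, and 1 TATA match, starting 189 and 244 bases before the start. *Chst15*, *Hs6st2* and *Sulf2* each had 2 listed starts, of which the first was used. These windows do not stand for their branches. Among other heparan genes, *Hs6st1* held 7 GC boxes, *Glce* 3 and *Ndst2* 3, while *Ext2* and *Extl1* held 0. *Chpf2* of the chondroitin branch also held 0. Promoter windows were matched for 30 of the 38 genes. A GC box was found in 23 of them (76.7%), against 46.3% of 17491 protein-coding promoters and 35.9% of all 27025. Their median GC content was 66.3%, from 48.3% for *B4galt7* to 78.0% for *Hs6st1*, against 56.3% for protein-coding promoters. TATAAA was found in 2 of the 30 (6.67%), against 13.3% of protein-coding promoters. A SOX-like motif (ACAANG) was in 8 (26.7%) and a RUNX-like motif (ACCACA) in 2 (6.67%), against 38.6% and 15.1%. An AP-1 motif (TGANTCA) was in 1 (3.33%), against 7.08%. The sets were not matched for GC content, so these shares do not separate a motif from base composition. These matches describe letters in a short window, and binding was not measured.

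The linkage enzymes, which build the sugar bridge shared by both branches, differed little. *Xylt2*, a xylosyltransferase that starts the bridge, had signals of 358 and 280, a difference of -0.35. *B4galt7*, which adds the first galactose, had 826 and 775 on its brightest probe set and 379 and 297 on the other, differences of -0.09 and -0.35. *B3galt6*, which adds the second galactose, had 595 and 733, 218 and 219, and 160.5 and 152 on its 3 probe sets. *B3gat3*, which closes the bridge with glucuronic acid, had 807 and 1059 on one probe set and 397 and 371 on the other. The probe sets of *B3galt6* (from -0.08 to 0.30) and of *B3gat3* (-0.10 and 0.39) disagreed in sign. None of the 4 genes reached 2-fold.

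Of the chondroitin chain enzymes, *Chsy3* differed between the zones and its bright paralogue *Chsy1* did not reach the spread between probe sets. *Chsy3*, a chondroitin synthase, had signals of 243 and 717, 2.95-fold higher in the columnar/hypertrophic array, while its second probe set lay near the floor at 48.9 and 66.1. *Chsy1*, the other synthase, had 13442 and 14393, a difference of 0.10 that was -0.06 after quantile normalization or lowess centring. The polymerizing factors *Chpf* (901 and 986) and *Chpf2* (2105 and 2138) differed by 0.13 and 0.02. The second probe set of *Chpf2* was at 717 and 499, a difference of -0.52, so its probe sets disagreed in sign. Averaged over probe sets, the difference of *Chsy3* was 0.78, under 2-fold.

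*Csgalnact1* and *Csgalnact2* add the first *N*-acetylgalactosamine and so commit a chain to chondroitin. *Csgalnact1* had 5929 and 6917 on one probe set and 3812 and 4141 on the other, differences of 0.22 and 0.12. *Csgalnact2* lay on the round side, with 1422 and 840 on its only probe set, a difference of -0.76. The pair lay on opposite sides, and both differences of *Csgalnact1* were smaller than the probe set SD. Over the 6 chain genes, 5 were on the columnar/hypertrophic side and 1 on the round side as deposited, and 3 on each side after quantile normalization.

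The chondroitin sulfotransferases above the floor were higher in the columnar/hypertrophic array, except *Ust*. *Chst11*, the main 4-O-sulfotransferase of cartilage chondroitin, had signals of 12068 and 19094 on one probe set and 743 and 1346 on the other, differences of 0.66 and 0.86. *Chst12*, a second 4-O-sulfotransferase, had 443 and 935 on its only probe set, a 2.11-fold difference. *Chst15*, which adds a further sulfate at carbon 6 to 4-sulfated units, had 296 and 961, a 3.25-fold difference. On the second probe set of *Chst15* the round signal was 20.4, under the floor, and the columnar/hypertrophic signal 329, at least 4.99-fold apart. *Ust*, the uronyl 2-O-sulfotransferase, lay on the other side with 549 and 329, a difference of -0.74, and its second probe set was under the floor in both arrays.

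The chondroitin 6-O-sulfotransferases *Chst3* (11.1 and 14.1) and *Chst7* (29.1 and 46.2) were under the floor in both arrays, each on 1 probe set. So was *Chst13*, another 4-O-sulfotransferase, at 54.1 and 64.4. No difference was taken for these 3 genes, and a low signal on a single probe set does not show that a transcript is absent. The dermatan sulfate enzymes differed by less than the probe set SD. *Dse*, the epimerase that turns glucuronic into iduronic acid, had 528 and 608, and *Chst14*, the dermatan 4-O-sulfotransferase, had 1038 and 926. Their differences were 0.20 and -0.16.

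Genes of sulfate and nucleotide sugar supply were higher in the columnar/hypertrophic array in 4 of 5 cases, with a median difference of 0.62, and none reached 2-fold on its brightest probe set. *Slc26a2*, the sulfate importer of chondrocytes, had signals of 8708 and 16136, 5086 and 9966, and 975 and 2384 on its 3 probe sets. All 3 were higher in the columnar/hypertrophic array, by 0.89, 0.97 and 1.29. Their mean, 1.05, passed 2-fold. *Slc35d1*, which carries UDP-glucuronic acid and UDP-*N*-acetylgalactosamine into the ER, had 2493 and 4852 on one probe set and 1154 and 1368 on the other. Its differences were 0.96 and 0.25, and the first became 1.04 when all differences were centred on their median. *Ugdh*, which makes UDP-glucuronic acid, had 11243 and 17302, a difference of 0.62.

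*Papss2* and *Papss1* encode the 2 PAPS synthases, and they lay on opposite sides. *Papss2* had signals of 19401 and 26523, 6904 and 12564, and 6650 and 11617 on its 3 bright probe sets, differences of 0.45, 0.86 and 0.80. The remaining probe set, at 67.0 and 53.1, was at the floor in the columnar/hypertrophic array and gave a bound of -0.02. *Papss1* had 6692 and 5671 on its only probe set, a difference of -0.24. The direction of both genes was the same under the 3 other scalings, from 0.30 to 0.53 for *Papss2* and from -0.39 to -0.16 for *Papss1*.

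**Figure D2:**
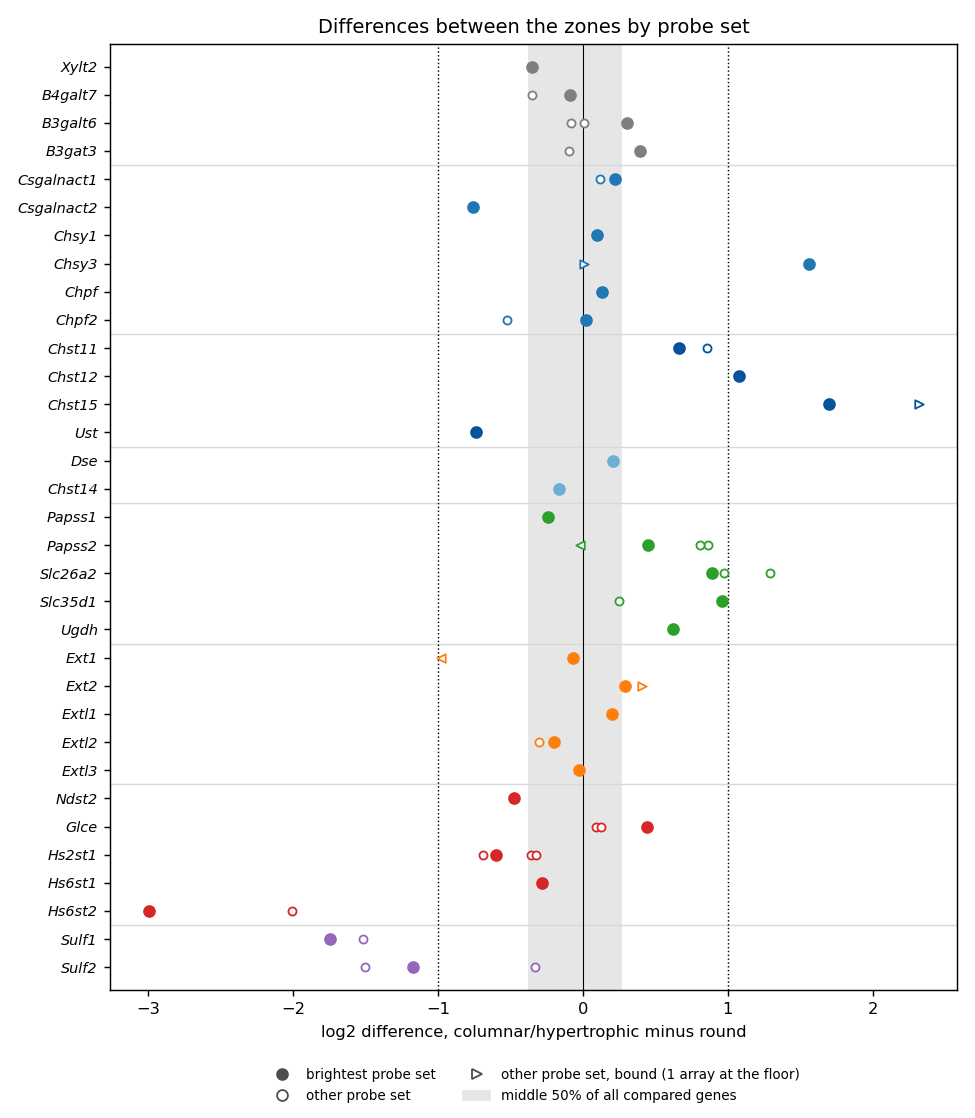
Log2 differences between the zones for each probe set of the 33 compared genes, with the brightest probe set filled, other probe sets open, and bounds as triangles. Dotted lines mark 2-fold and the grey band the middle 50% of all compared genes. The 3 probe sets of *Slc26a2* lie between 0.89 and 1.29 and the 4 of *Hs2st1* between -0.69 and -0.32.

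The heparan chain enzymes differed by less than the probe set SD on their brightest probe sets. *Ext1* and *Ext2*, which together polymerize heparan sulfate and are mutated in hereditary multiple exostoses, had signals of 1353 and 1291 and of 1911 and 2340. A second probe set of *Ext1* at 130 and 48.4 gave a bound of -0.98, and a second of *Ext2* at 62.7 and 87.2 gave a bound of 0.40. *Extl1* had 1626 and 1869, *Extl2* 922 and 803, and *Extl3*, which starts the heparan chain, 676 and 663. The 5 differences ran from -0.20 to 0.29, and 2 of 5 were above 0 as deposited and 4 of 5 after centring on the median, so the group had no stable side.

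Most enzymes that modify heparan chains were lower in the columnar/hypertrophic array, and *Hs6st2* differed most among all 33 genes. *Hs6st2*, a heparan 6-O-sulfotransferase, had signals of 2123 and 266, 7.98-fold higher in the round array. Its second probe set gave 297 and 73.8, a difference of -2.01, and the other two, at 26.9 and 11.8 and at 24.8 and 10.9, lay under the floor. The related *Hs6st1* had 171 and 141, a difference of -0.28 that was -0.04 after lowess centring. *Hs2st1*, the heparan 2-O-sulfotransferase, was lower in the columnar/hypertrophic array on all 4 probe sets, with signals of 1945 and 1283 on the brightest and differences from -0.69 to -0.32.

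*Ndst2*, which replaces acetyl by sulfate on glucosamine and so opens the way for later steps, had 595 and 428, a difference of -0.48. *Glce*, the epimerase that makes iduronic acid in heparan sulfate, was the exception, with 1720 and 2341 on its brightest probe set and differences of 0.44, 0.12 and 0.09 on its 3. Over the 5 compared genes of this step, 4 were on the round side, with a median of -0.48 that ranged from -0.54 to -0.36 under the alternatives.

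Both extracellular sulfatases were higher in the round array. *Sulf1* and *Sulf2* clip 6-O-sulfates from finished heparan chains and thereby change how growth factors bind. *Sulf1* had signals of 587 and 175 on one probe set and 400 and 140 on the other, differences of -1.75 and -1.52, and the remaining one, at 9.3 and 7.6, was under the floor. *Sulf2* had 7604 and 3372, 4055 and 1431, and 283 and 225 on its 3 probe sets. All 3 were lower in the columnar/hypertrophic array, with differences of -1.17, -1.50 and -0.33. Only the last has an identifier without the manufacturer's mark for probe sets that match several transcripts, so the difference was -0.33 with unmarked probe sets alone.

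Paralogues were set side by side, and some of these pairs, such as *Chst11* and *Chst14*, act at different steps. *Hs6st2* and *Hs6st1* differed from each other by 2.72 in their log2 differences, *Chsy3* and *Chsy1* by 1.46, *Csgalnact1* and *Csgalnact2* by 0.98, and *Papss2* and *Papss1* by 0.69. *Chst11* stood 0.83 above *Chst14*, and *Sulf1* and *Sulf2* were on the same side, 0.57 apart. *Chst11* and *Chst12* were 0.42 apart, *Ext1* and *Ext2* 0.36, *Ext1* and *Extl1* 0.27, *Extl2* and *Extl3* 0.17, and *Chpf* and *Chpf2* 0.11. These are differences on single arrays, and whether they exceed the variation between embryos was not tested.

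Other genes of the pathway were set beside these, from a list of 45 measured genes of which 41 could be compared. In this list 2 of the 41 passed 2-fold on the round side, against 6.25% of all compared genes. On the other side 0 did, against 4.28%, and the median was 0.18. Genes of nucleotide sugar and PAPS metabolism lay on the columnar/hypertrophic side in 15 of 15 cases, against 46.8% of all compared genes. Their differences ran from 0.02 to 0.96, with a median of 0.37. The count was 14 of 15 after quantile normalization or lowess centring, and 13 of 14 with unmarked probe sets only. *Ugp2*, which makes UDP-glucose for *Ugdh*, had signals of 4297 and 8378, with differences from 0.82 to 1.02 over 5 probe sets. *Gfpt2*, an entry enzyme of hexosamine synthesis, had 1888 and 3645. Its paralogue *Gfpt1* had 9492 and 9631, a difference of 0.02, and its other compared probe sets ran from -0.40 to 0.97. *Slc35b2*, which carries PAPS into the Golgi, had 3810 and 5672 on one probe set and 221 and 649 on the other. *Bpnt2*, the Golgi phosphatase that clears the spent donor, had 4612 and 7196, and its 3 probe sets gave differences from 0.52 to 0.64.

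*Fam20b*, the kinase that phosphorylates the linker xylose, had 5580 and 8258, a difference of 0.57, with 0.72 and -0.16 on its other probe sets. *Pxylp1*, the phosphatase that removes that phosphate, had 6841 and 9558, a difference of 0.48. Of 8 other measured heparan sulfotransferases 4 were compared, and all 4 lay on the columnar/hypertrophic side. Their differences ran from 0.10 to 0.66, with a median of 0.23, and their signals were low. *Hs3st2* (161 and 173), *Hs3st3a1* (97.1 and 117) and *Hs3st3b1* (196 and 222) differed by less than the probe set SD. The other compared probe sets of *Hs3st3b1* gave -0.25 and -0.05. *Hs3st6* (65.5 and 104) was under the floor in the round array, so its 0.66 is a bound. These 4 genes therefore give no clear contrast with the listed heparan genes. Averaged over probe sets, 3 of the 4 lay on that side. *Ndst3*, *Ndst4*, *Hs3st1* and *Hs6st3* were under the floor in both arrays. The 6 keratan sulfate genes had a median of -0.31 as deposited, with 5 on the round side. After median centring, quantile normalization and lowess centring the median was -0.23, -0.10 and -0.12, with 4 on the round side each time. *Chst2* was the farthest apart at 215 and 109, a difference of -0.98. Of 13 genes listed for lysosomal breakdown of the chains, 8 were on the round side as deposited and 7 under each of the 3 other scalings. Of all compared genes, 46.8% lay on the columnar/hypertrophic side. The 13 include *Sumf1* and *Sumf2*, sulfatase-modifying factors that do not themselves cut chains, and both were on the round side as deposited (-0.07 and -0.13). *Galns*, a sulfatase of keratan sulfate and chondroitin 6-sulfate, had 498 and 230, 2.16-fold higher in the round array. *Ids*, the iduronate sulfatase of heparan and dermatan sulfate, had 3312 and 1640, 2.02-fold higher in the round array, while its other 3 compared probe sets gave -0.56, 0.19 and a bound of -0.72.

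**Figure D3:**
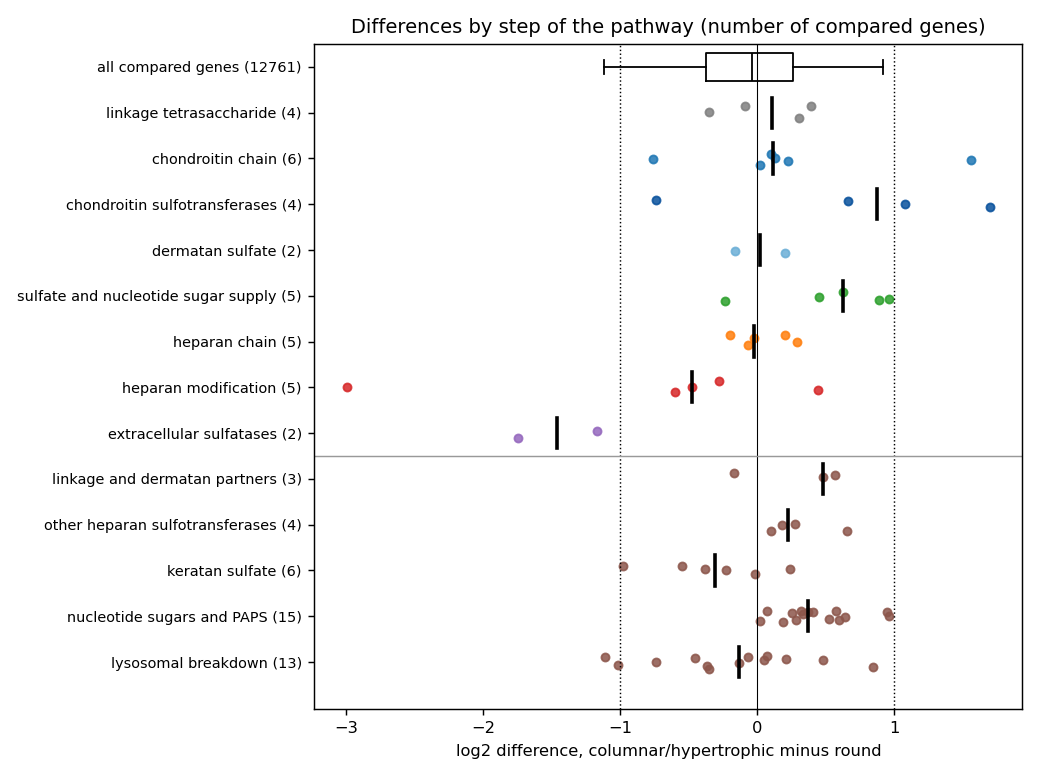
Log2 differences of the compared genes by step of the pathway, one point per gene, with the step's median as a bar, and with all 12761 compared genes as a box (quartiles, with whiskers at the 5th and 95th percentiles). Steps above the grey line are those of the 38 listed genes and those under it are the related genes. The sulfate and nucleotide sugar supply has a median of 0.62 and the extracellular sulfatases one of -1.46.

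The labelled zones were set against marker genes. The marker lists were chosen with earlier results of these data known, so this is not an independent check of the labels. All 14 chondrocyte markers were above the floor in both arrays, and *Acan*, the core protein that carries most chondroitin sulfate in cartilage, had signals of 34757 and 39969. Of 9 measured markers of round or resting chondrocytes, 8 were higher by 2-fold or more in the round array, and all 7 measured columnar or prehypertrophic markers were higher by 2-fold or more in the columnar/hypertrophic array. Of 5 measured hypertrophic markers 3 were, while *Mmp13* was under the floor in both arrays and *Vegfa* lay on the round side, with signals of 3095 and 1877 and a difference of -0.72. The knocked-out *Tmem38b* gave signals from 69.4 to 323 and from 43.1 to 304 on 4 probe sets, whose place relative to the deletion is not known here, so they do not check the genotype.

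Markers of perichondrium, tendon and fibroblasts lay mostly on the same side as *Hs6st2*, *Sulf1* and *Sulf2*. Of 14 such markers, 8 were higher by 2-fold or more in the round array and 0 in the other, and their signals summed to 118540 (round) and 48165 (columnar/hypertrophic). All 14 were above the floor in the round array, while *Scx*, *Dpt* and *Aspn* were under it in the columnar/hypertrophic array. The part of these cells in the 3 differences was not tested. On the side of *Chsy3*, *Chst12* and *Chst15*, the 4 measured osteoblast markers summed to 263 and 1868, of which *Sp7* alone gave 141 and 1342. Of these markers, 2 of 4 were higher by 2-fold or more in the columnar/hypertrophic array, and *Dmp1* and *Phex* were under the floor in the round array. The 9 muscle markers summed to 373 and 1185, with 3 of the 5 compared at least 2-fold higher there and *Myh3*, *Myh8*, *Tnni1* and *Myog* under the floor in both arrays. The part of these cells was not tested either. Endothelial markers summed to 659 and 554, with *Tek* and *Tie1* under the floor in both, and myeloid markers to 1611 and 1841, with *Ptprc*, *Acp5* and *Mmp9* under it in both. The 4 measured erythroid markers summed to 180 and 116, and 3 of them, *Hba-a1*, *Hbb-y* and *Slc4a1*, were under the floor in both.

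**Figure D4:**
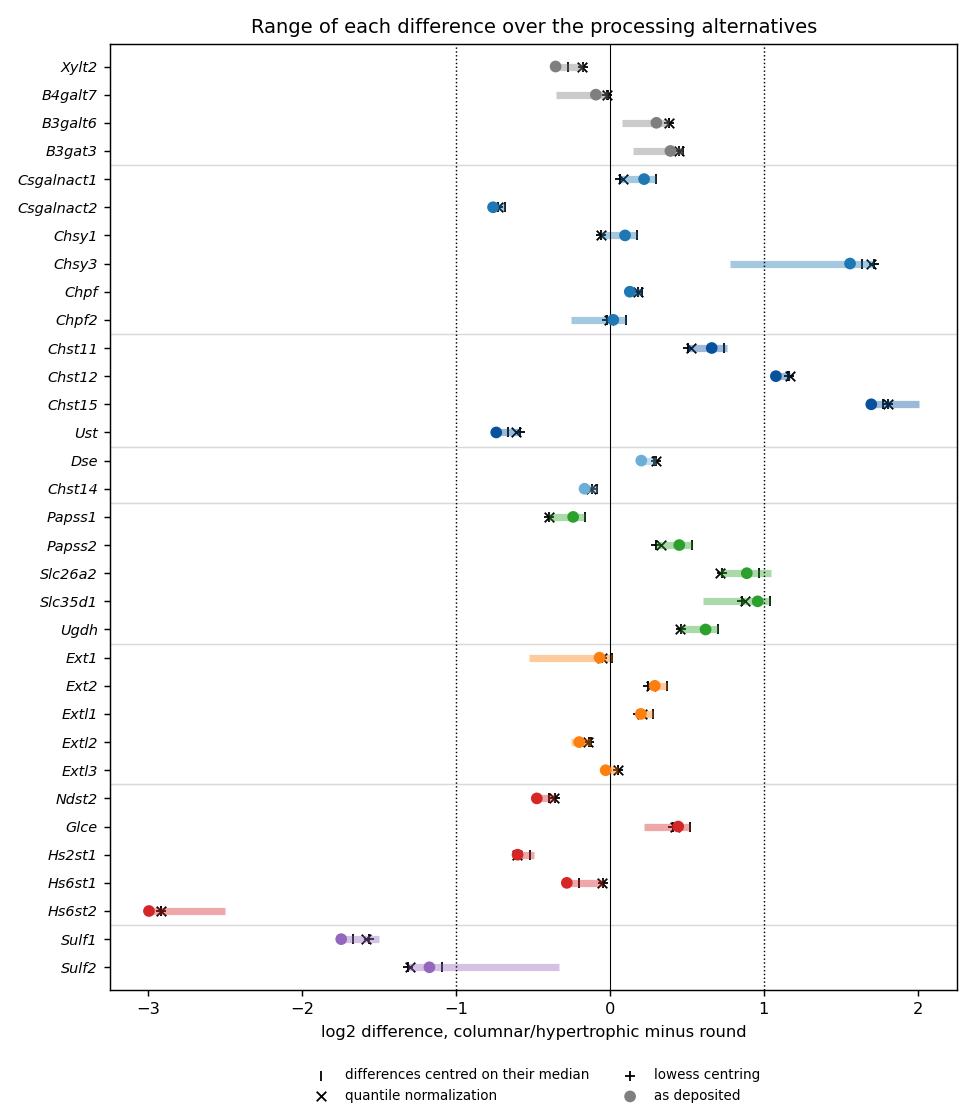
Log2 difference of each compared gene as deposited (filled circles), under 3 other scalings of the arrays (bar, cross and plus), and over all alternatives in floor, scaling and probe set choice (pale bars). *Hs6st2* stays between -3.00 and -2.50 and *Chst15* between 1.70 and 2.01, while *Sulf2* runs from -1.31 to -0.33 and *Chsy3* from 0.78 to 1.72.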

How the data were processed

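The authors deposited probe set intensities on a linear scale for 2 arrays. The submitters' processing notes name MAS5, without a version, whereas robust multiarray analysis, which yields log values, is what the methods give for heatmaps and round specimens. The mean signal, trimmed by 2% at each end, came to 497 (round) and 496 (columnar/hypertrophic), and values were used without further scaling. Both columns were used, and no detection calls.

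The platform annotation gave 1 symbol to 34945 of 45037, several to 932 and none here to 9160. Only singly annotated probe sets were used, 69 of them for the listed genes. All 69 were found by Entrez identifier in a RefSeq table, and no symbol changed.

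Probe sets not above the floor (40th percentile) in either array were excluded, and those above it in only 1 array yielded a bound. The brightest probe set by mean log2 signal stood for a gene. Single arrays allow no test, so genes were counted by a 2-fold size rule. All listed genes were to be named, with every probe set where the gene was 2-fold apart or its probe sets differed in sign, related genes where 2-fold apart, paralogue pairs side by side, and at most 3 markers of a list, beyond which markers under the floor are named. The other related genes given were chosen after their values were seen. The genes, lists and motifs were chosen with earlier results of these data known. Having 1 array per zone limits the precision of every value.

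Alternatives were median centring, quantile normalization, lowess centring (fraction 0.2), other floors (20th percentile, 60th percentile, none), averaging of probe sets, unmarked probe sets only, and a 3-fold rule. Steps were tested on simulated data. Software was matplotlib 3.10.9, statsmodels 0.14.6, pandas 2.3.3, numpy 2.4.6 and Python 3.11.15.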

Additional observations from a re-analysis of the deposited data

How the results depend on the processing

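No paired analysis was possible because a single array stood for each zone, without replicate numbers to pair. Over the 33 compared genes and the alternatives in scaling, floor and probe set choice, 256 log2 differences stayed within the pooled SD of 0.34 of the value as deposited and 5 moved beyond it. Median centring shifted every difference by the same amount, which was less than this SD. Other floors could change only signals at or under a floor. Much of the count of 256 was therefore fixed in advance and is no measure of stability. No difference of 2-fold turned its sign. Those that moved were, with the mean over probe sets, *Chsy3* (0.78), *Slc35d1* (0.60), *Ext1* (-0.52) and *Hs6st2* (-2.50), and, with unmarked probe sets only, *Sulf2* (-0.33). Among differences under 2-fold, *Chsy1*, *Chpf2*, *Ext1* and *Extl3* had either sign, depending on the setting. With the 3-fold rule 1 gene, *Chst15*, passed on the columnar/hypertrophic side, 2 (*Hs6st2* and *Sulf1*) on the round side, and 0 of the related genes. Of all probe sets, 2874 were at least 2-fold apart, 6305 with the floor at the 20th percentile, 1402 with the floor at the 60th, 12202 with no floor and 957 by the 3-fold rule, as follows from these rules. The median over the listed genes was 0.05 to 0.18 over all settings, against -0.06 to 0.04 for all genes. Signals near the floor are the least certain, and those of *Chst3*, *Chst7* and *Chst13* had no order.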
